A study of Mus musculus with 12 samples.

Results

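The genes described here encode the sheet-like basement membrane and the other non-fibrillar matrix proteins: collagen chains other than Col1a1, Col1a2, Col3a1, Col5a1 and Col5a2, laminins, nidogens, perlecan, fibulins, fibrillins, thrombospondins, lysyl oxidases, fibronectin, Sparc, tenascin C and elastin. The rule reads gene symbols and no measured value, though it was set with earlier results of these data known. The rule took 84 array features of 59 genes, out of 11520 features and 9212 named genes on the array, and 19 of the 59 genes had more than 1 feature. No filter on low values was applied, so all 59 were tested. The rule also keeps 4 chains of fibrillar collagens, Col2a1, Col5a3, Col11a1 and Col11a2, which are given as a family of their own.

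The series followed the undirected differentiation of R1 cells, an established line of mouse embryonic stem (ES) cells. ES cells were kept undifferentiated on gelatin with leukemia inhibitory factor and serum. Differentiation took place in aggregates, the embryoid bodies (EB), with no inducing agent named; these were dissociated and plated in serum for 4, 8, 15 or 21 days. On each of the 12 arrays, EB RNA from a single day was hybridised together with ES RNA, with 3 arrays per day and no further treatment or allele named. All groups share the ES RNA as their only comparison, and no dye was swapped. Separate cultures are not named in the labels. The p-values therefore rest on the spread among arrays alone, which may be technical.

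Values are log2 ratios as deposited, base 2 being a convention, with standard deviations over 3 arrays and limma's adjusted p. A gene is called where its p, adjusted by Benjamini-Hochberg over all features tested, is under 0.05. A positive ratio is read as higher in EB. That reading follows the label protocols, which put Cy5 on EB RNA, and is likely but not settled, since the titles and dye fields give the opposite order; with the opposite order, higher and lower swap places throughout and the p-values stay as they are. On the sign as deposited, 12 of 14 markers of undifferentiated ES cells were called lower and 0 higher in EB at day 21. Zfp42, also known as Rex1, was at -2.54 ± 0.02 and Afp, the alpha-fetoprotein of yolk sac endoderm, at 3.60 ± 0.44. Groups were taken from the labels and not from such values. EB are mixtures, in which fewer cells of a type and less RNA per cell cannot be told apart. A set of 96 evenly spaced features with no gene symbol had medians between -1.54 and -1.04 on array 3 of each day and on array 2 of day 8. On the other arrays those medians lay between -0.31 and 0.06, so the arrays form 2 sets, with every day in both. The cause of these sets was not tested.

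A basement membrane is built from a laminin network at the cell surface and a type IV collagen network, which nidogens and perlecan link. Laminin is a trimer of an alpha, a beta and a gamma chain; the form with the chains of Lama1, Lamb1 and Lamc1 is the one of the early embryo. Embryoid bodies are known to lay down such a membrane under an outer layer of endoderm, and parietal endoderm makes a very thick one. Lysyl oxidases cross-link collagens and elastin, and thrombospondins, Sparc and tenascin C are matricellular proteins, which act on cells more than as a scaffold.

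Promoter sequence was taken from RefSeq windows of GRCm38.p6, which held 40 of the 59 genes. The 250 bases before the annotated start are printed for 4 genes that carry the findings below: Lamb1, highest at day 8, its relative Lamb2, called at day 21 alone, Sparc, called from day 8 on, and Col4a5, called from day 15 on. They lie at chr12:31265043-31265292 (plus strand), chr9:108479612-108479861 (plus), chr11:55420081-55420330 (minus) and chrX:141475169-141475418 (plus), each directly before the annotated start. Capitals mark matches on either strand to the CCAAT box, to the GC box with the letters GGGCGG, to the TATA box with the letters TATAAA, or to the GATA core with the letters GATAA, which do not overlap here.
Lamb1: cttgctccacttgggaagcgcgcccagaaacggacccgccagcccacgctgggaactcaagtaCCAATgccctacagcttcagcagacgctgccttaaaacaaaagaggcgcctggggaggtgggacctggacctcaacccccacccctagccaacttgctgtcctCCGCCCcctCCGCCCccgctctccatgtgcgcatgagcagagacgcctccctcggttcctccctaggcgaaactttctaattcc
Lamb2: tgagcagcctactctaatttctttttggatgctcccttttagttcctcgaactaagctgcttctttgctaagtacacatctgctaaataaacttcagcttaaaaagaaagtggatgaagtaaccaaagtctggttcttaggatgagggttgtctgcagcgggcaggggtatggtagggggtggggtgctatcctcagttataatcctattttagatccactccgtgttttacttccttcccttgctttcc
Sparc: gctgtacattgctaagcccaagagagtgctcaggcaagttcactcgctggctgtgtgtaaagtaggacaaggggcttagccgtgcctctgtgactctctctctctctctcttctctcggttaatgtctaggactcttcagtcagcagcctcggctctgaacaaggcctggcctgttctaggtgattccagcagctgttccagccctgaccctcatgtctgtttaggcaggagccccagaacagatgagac
Col4a5: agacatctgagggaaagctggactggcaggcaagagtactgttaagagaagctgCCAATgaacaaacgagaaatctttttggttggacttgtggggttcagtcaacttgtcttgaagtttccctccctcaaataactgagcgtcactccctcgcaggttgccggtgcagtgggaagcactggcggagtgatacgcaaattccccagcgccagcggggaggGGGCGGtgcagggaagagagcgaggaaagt
The Lamb1 window held 2 GC boxes and 1 CCAAT, and that of Col4a5 held 1 of each. The windows of Lamb2 and Sparc held none of the 4 motifs. A GC box was found in 21 of the 40 genes (52.5%; the first window listed was used where a gene had several) and in 32.7% of all 32851 windows. CCAAT was found in 32.5% and 33.8%, TATAAA in 15.0% and 12.4%, and GATAA in 12.5% and 22.6%. ACAAT, the core that SOX factors bind, was found in 5.0% of the genes and 27.7% of all windows. The AP-1 site TGACTCA was found in 2.5% and 4.5%. These matches are descriptions of letters, and their part in the ratios was not tested.

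Few of the 59 genes moved by day 8 and more by day 21, nearly all upward. At day 21 the test called 16 genes higher and 1 lower, where 8.78% of all 10689 features tested were called higher and 9.93% lower; the 16 are 27.1% of the 59. At day 15 it called 6 higher and 1 lower, or 10.2% and 1.69% of the genes, against 5.66% and 4.9% of all features. At day 8 it called 5 higher (8.47%) and 2 lower (3.39%), against 1.23% and 1.06%. At day 4 it called none, with 0% of all features called either way, and array weights also called 0. At that day 3 genes had an unadjusted p under 0.05, all lower. The share of all features at that unadjusted threshold was not counted. The median over the 59 genes was -0.01 at day 4, 0.00 at day 8, 0.10 at day 15 and 0.17 at day 21, while the median over all features stayed between -0.00 and 0.01. By array that median was 0.24, 0.16 and 0.18 at day 21 and 0.15, 0.08 and 0.06 at day 15. Means above 0 were found for 29 genes at day 4, 32 at day 8, 44 at day 15 and 47 at day 21. The 39 genes called in no comparison had day 21 means from -0.22 to 0.37, with a median of 0.10.

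**Figure D1:**
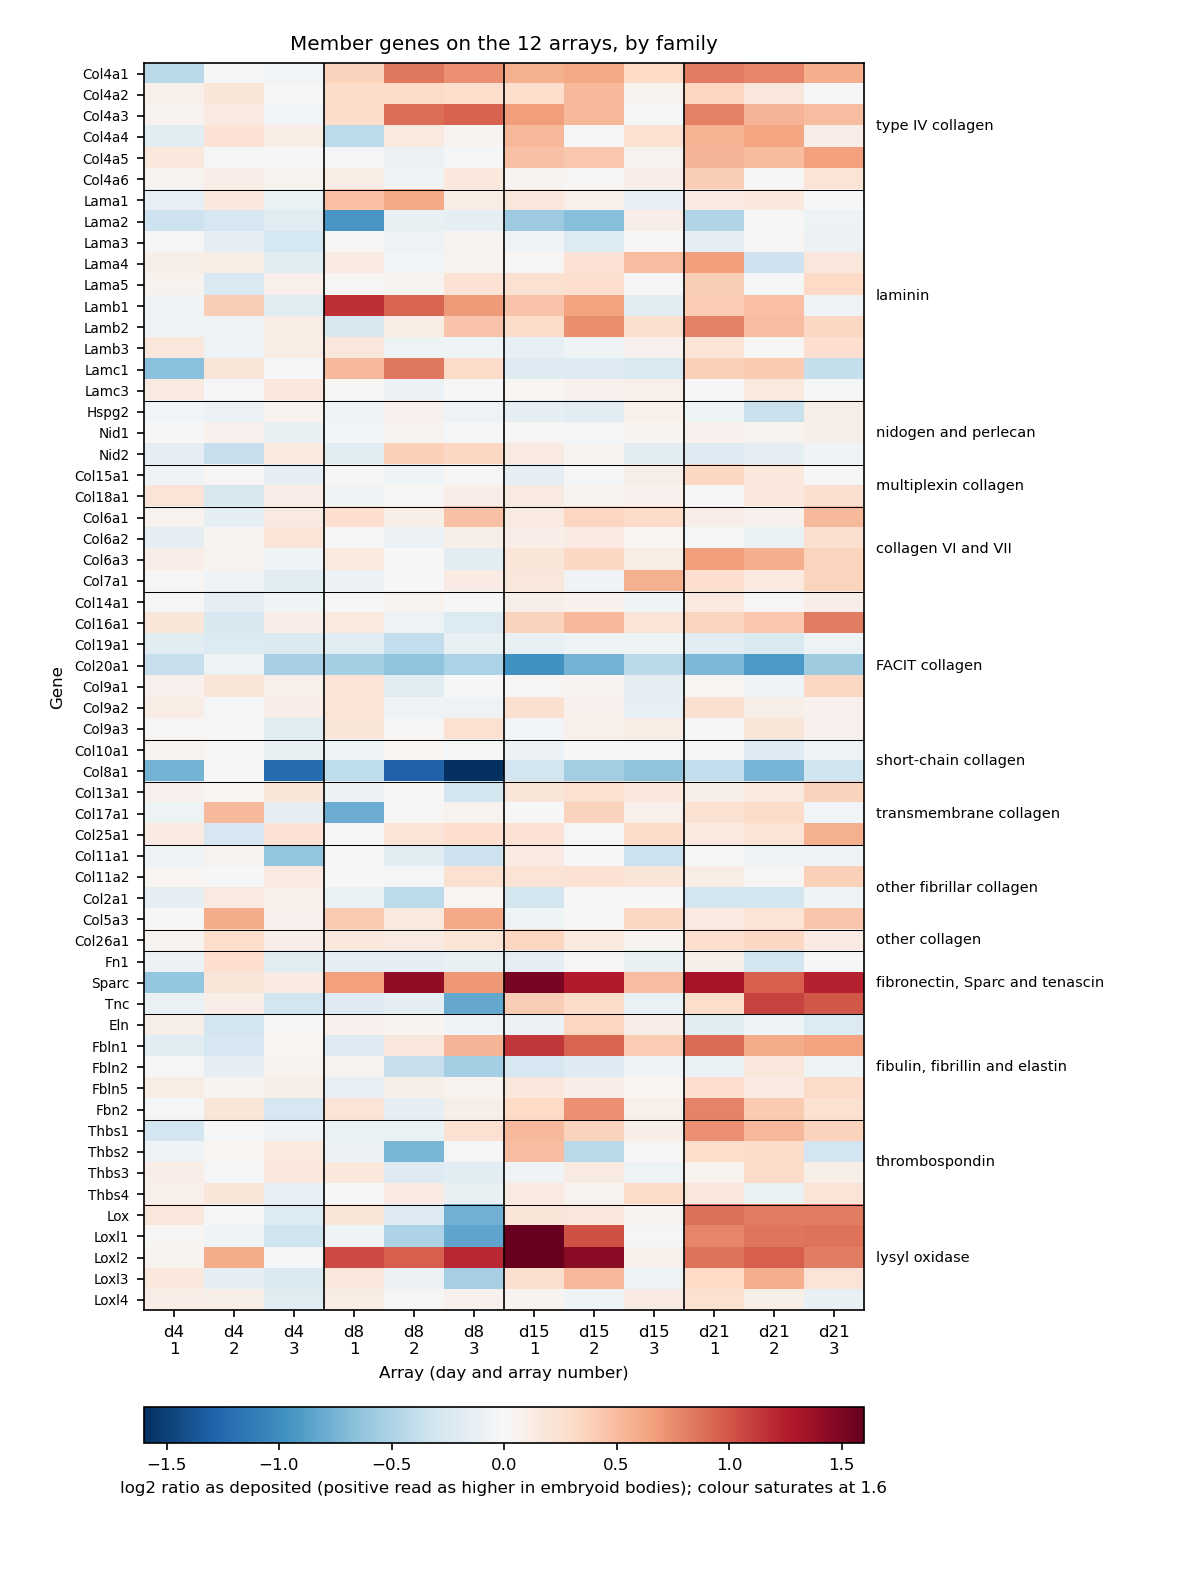
Heat map of the log2 ratio (colour) of all 59 genes (rows, grouped by family) on the 12 arrays (columns, day and array number). At day 8 red cells are found mainly in Col4a1, Col4a3, Lamb1, Sparc and Loxl2, and at day 21 in most of the type IV collagen and lysyl oxidase rows, while Col20a1 is blue from day 8 on.

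Type IV collagen, whose 6 chains form the network of the basement membrane, was called higher in 4 chains at day 21. The family median was 0.06 at day 4 and 0.18, 0.30 and 0.50 at the later days. Col4a1, a chain of the most widespread trimer, stood at -0.43, -0.00 and -0.04 on the day 4 arrays and at 0.36, 0.84 and 0.73 at day 8. It was 0.57, 0.62 and 0.32 at day 15 and 0.83, 0.78 and 0.59 at day 21. All 9 later arrays lay above the 3 of day 4. Its means were 0.65 ± 0.25 at day 8 (adjusted p = 0.0179), 0.50 ± 0.16 at day 15 (adjusted p = 0.0131) and 0.73 ± 0.13 at day 21 (adjusted p = 9.22e-04). The day 21 call held without each array. The day 8 call was lost without array 2 (0.55) or 3 (0.60), and the day 15 call without array 1 (0.47) or 2 (0.45).

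Col4a2, the partner chain of Col4a1 in that trimer, was at 0.30, 0.30 and 0.28 at day 8 and 0.34, 0.18 and -0.00 at day 21, and was called on no day (adjusted p = 0.109 and 0.218, and 0.0679 at day 15). The 2 genes lie head to head on chromosome 8, with annotated starts 21 bases apart, and the features of each gene disagreed. What sets the ratios of the pair apart was not tested. For Col4a1, feature 6539 averaged 1.31 at day 21 and feature 6707 averaged 0.85, while feature 948 stayed at 0.03. For Col4a2, feature 6701 averaged 0.57, 0.39 and 0.53 at days 8, 15 and 21. Feature 8244 averaged 0.36, 0.55 and 0.02, and feature 5699 averaged -0.05, -0.08 and -0.04. In a fit of single features, 6701 had adjusted p = 0.0148, 0.0251 and 0.003 at those days, and 8244 had adjusted p = 0.0615, 0.00279 and 0.884. Each gene thus had a feature whose mean stayed at or below 0.21 on all days and at least 1 that was higher, and the gene means average over them.

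Among the other chains, calls fell on different days, and no test compared the chains with each other. The F-test between days called neither Col4a3 (adjusted p = 0.242) nor Col4a4 (adjusted p = 0.44). Col4a3, a chain of the trimer typical of kidney and lung membranes, was 0.06, 0.15 and -0.04 at day 4 and 0.29, 0.90 and 0.94 at day 8. It was 0.67, 0.53 and -0.02 at day 15 and 0.81, 0.54 and 0.50 at day 21. The test called it at day 8 (0.71 ± 0.37, adjusted p = 0.0256) and day 21 (0.61 ± 0.17, adjusted p = 0.0102), and not at day 15 (0.40 ± 0.36, adjusted p = 0.0938), where array 3 stood apart. The day 8 call was lost without array 2 (0.62) or 3 (0.59), and the day 21 call without array 1 (0.52). Col4a4, which joins the same trimer, was -0.18, 0.23 and 0.12 at day 4, -0.42, 0.16 and 0.05 at day 8, 0.54, 0.00 and 0.25 at day 15, and 0.55, 0.63 and 0.10 at day 21. Its day 21 mean of 0.43 ± 0.29 only just passed (adjusted p = 0.0492). That call was lost without day 21 array 1 (0.37) or 2 (0.33), and also without day 4 array 1, 2 or 3, day 8 array 2 or 3 or day 15 array 3, where the value stays at 0.43. The adjusted p then ranged up to 0.265.

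Col4a5, the X-linked chain that joins Col4a3 and Col4a4 or pairs with Col4a6, was near 0 until day 8, with 0.16, -0.01 and -0.01 at day 4 and -0.03, -0.10 and -0.01 at day 8. It was 0.47, 0.43 and 0.06 at day 15 and 0.54, 0.51 and 0.65 at day 21, so that the day 21 arrays did not overlap those of days 4 and 8. Calls were made at day 15 (0.32 ± 0.23, adjusted p = 0.0334) and at day 21 (0.57 ± 0.07, adjusted p = 8.94e-04). The day 21 call held without each array, and the day 15 call was lost without array 1 (0.24) or 2 (0.26). Its features differed, with 7744 at 0.85 and 6621 at 0.29 at day 21. In a fit of single features both passed at that day (adjusted p = 4.39e-04 and 0.0153). At day 15 feature 7744 passed and 6621 did not (adjusted p = 0.0232 and 0.158). The same held for day 21 minus day 4 (0.0213 and 0.107) and for the F-test (0.0301 and 0.206). The head-to-head neighbour of Col4a5 is Col4a6, whose annotated start lies 1343 bases away. Col4a6 was 0.39, -0.01 and 0.22 at day 21 and was not called (0.20 ± 0.20, adjusted p = 0.111).

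Of 10 laminin chains, 1 was called higher at day 8 and another at day 21. Lamb1, the beta chain of the early embryo, was -0.06, 0.39 and -0.17 at day 4 and 1.17, 0.93 and 0.69 at day 8. It was 0.45, 0.65 and -0.17 at day 15 and 0.41, 0.48 and -0.06 at day 21. The 3 day 8 arrays were the highest of the 12. Lamb1 was called at day 8 (0.93 ± 0.24, adjusted p = 0.019) and not at day 15 (0.31 ± 0.43, adjusted p = 0.249) or day 21 (0.28 ± 0.29, adjusted p = 0.254). The day 8 call was lost without array 1 (0.81), 2 (0.93) or 3 (1.05). The difference between days 15 and 8 did not pass either (adjusted p = 0.413).

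The chains that join Lamb1 in the trimer of the early embryo had their highest mean at day 8 too, without passing. Lamc1 was 0.52, 0.85 and 0.30 at day 8 (0.56 ± 0.28, adjusted p = 0.105) and -0.20, -0.21 and -0.24 at day 15 (-0.22 ± 0.02, adjusted p = 0.464). Its arrays at those days did not overlap, but the difference between days 15 and 8 was not called (-0.78, adjusted p = 0.317). The share of all features separated in this way was not counted. Lama1 was 0.48, 0.60 and 0.12 at day 8 (0.40 ± 0.25, adjusted p = 0.0607) and 0.18, 0.08 and -0.14 at day 15. That mean joins feature 3178 at 0.68 and feature 9564 at 0.12.

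Lamb2, the beta chain of later laminins such as those of muscle and kidney, was -0.05, -0.08 and 0.12 at day 4 and -0.25, 0.12 and 0.46 at day 8. It was 0.29, 0.74 and 0.26 at day 15 and 0.80, 0.49 and 0.33 at day 21. It was called at day 21 alone (0.54 ± 0.24, adjusted p = 0.0148), and that call was lost without day 21 array 1 (0.41) or 2 (0.57). At day 15 it just missed the threshold (0.43 ± 0.27, adjusted p = 0.0598). The difference between days 21 and 15 was 0.11 and was not called (adjusted p = 0.978). The other 8 chains, Lamc1 and Lama1 among them, were called on no day. Lama5, the alpha chain of most adult membranes, averaged 0.23 at day 21 (adjusted p = 0.129). Lama2, the alpha chain of muscle, averaged -0.40 at day 8 (adjusted p = 0.224), with array 1 at -0.93 and the others at -0.11 and -0.16. Lama4, an alpha chain of vessel walls, averaged 0.17 at day 21 (adjusted p = 0.443).

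**Figure D2:**
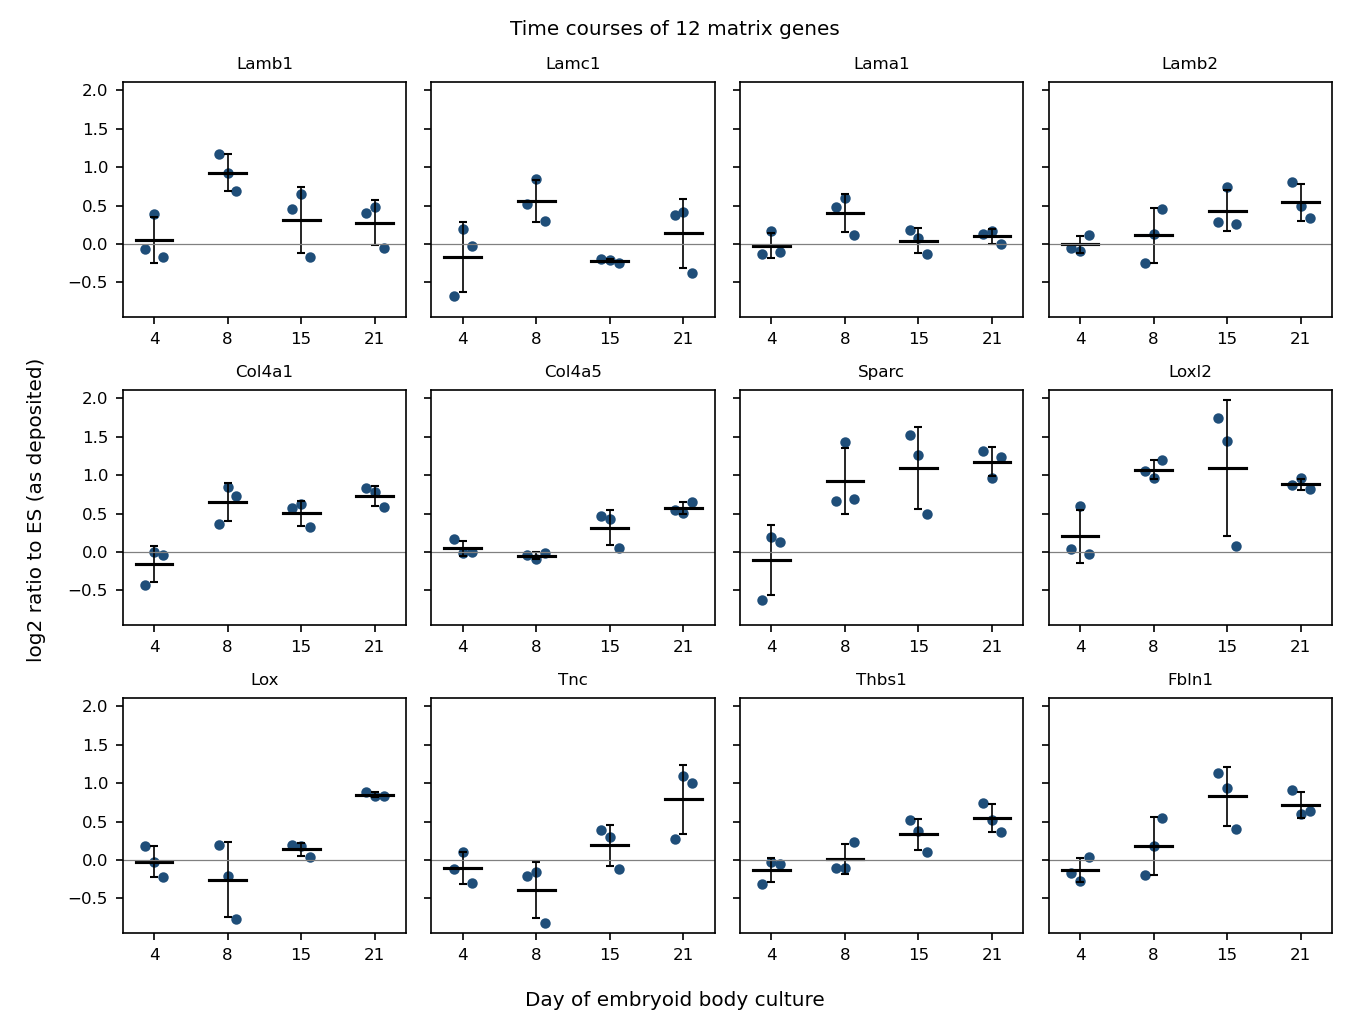
Log2 ratio (vertical axis) of 12 genes by day of culture (horizontal axis), with a point per array, a bar at the mean and whiskers of 1 standard deviation (n = 3). Lamb1 is highest at day 8 (0.93), Sparc and Loxl2 are raised from day 8 to day 21, and Lox has means of -0.02, -0.26 and 0.14 at days 4, 8 and 15 and of 0.85 at day 21.

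The linkers of the 2 networks were called on no day. Nid1 averaged 0.07 and Hspg2, which encodes perlecan, averaged -0.11 at day 21 (adjusted p = 0.466 and 0.418). Nid2, whose day 21 ratio was the farthest from 0 in the family, was -0.16, -0.38 and 0.15 at day 4, -0.18, 0.38 and 0.33 at day 8, 0.15, 0.05 and -0.17 at day 15, and -0.20, -0.16 and -0.06 at day 21 (-0.14 ± 0.07, adjusted p = 0.442). The family median was between -0.11 and 0.01 on every day. Of the multiplexins, collagens of the membrane zone that carry sugar chains, Col15a1 was -0.05, 0.01 and -0.14 at day 4, -0.00, -0.07 and 0.02 at day 8, -0.16, -0.03 and 0.10 at day 15, and 0.33, 0.16 and 0.01 at day 21 (0.17 ± 0.16, adjusted p = 0.159). Col18a1, the source of endostatin, averaged 0.14 at day 21 (adjusted p = 0.308).

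Sparc, a calcium- and collagen-binding protein abundant in parietal endoderm, had the largest day 21 ratio of the 59 genes. It was -0.62, 0.19 and 0.13 at day 4, 0.66, 1.42 and 0.69 at day 8, 1.52, 1.26 and 0.49 at day 15, and 1.31, 0.96 and 1.24 at day 21. All 9 later arrays lay above the 3 of day 4. Sparc was called at day 8 (0.93 ± 0.43, adjusted p = 0.0379), day 15 (1.09 ± 0.53, adjusted p = 0.00591) and day 21 (1.17 ± 0.19, adjusted p = 0.00235), the last also without each array. The day 15 call was lost without array 1 (0.88) or 2 (1.01). The day 8 call was lost without its array 1 (1.06), 2 (0.68) or 3 (1.04), and at an unchanged value of 0.93 without day 15 array 2 or day 21 array 1 or 2.

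Tnc, which encodes tenascin C of developing mesenchyme, was -0.11, 0.11 and -0.30 at day 4, -0.20, -0.16 and -0.81 at day 8, 0.39, 0.29 and -0.11 at day 15, and 0.28, 1.09 and 1.00 at day 21. It was called at day 21 (0.79 ± 0.44, adjusted p = 0.00658), though not without array 2 (0.64, adjusted p = 0.0745). Feature 1058 averaged 1.25 and feature 8545 averaged 0.32 at that day. Fn1, which encodes fibronectin, the adhesive protein on which cells migrate, was 0.10, -0.30 and -0.00 at day 21 and was called on no day (-0.07 ± 0.21, adjusted p = 0.675).

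Among elastic fibre genes, 3 of 5 were called higher at day 21 and 1 at day 15. Fbln1, which encodes fibulin-1 of basement membranes and elastic fibres, was -0.17, -0.27 and 0.03 at day 4, -0.20, 0.19 and 0.55 at day 8, 1.13, 0.94 and 0.41 at day 15, and 0.90, 0.59 and 0.64 at day 21. Fbln1 was called at day 15 (0.82 ± 0.38, adjusted p = 0.00465) and day 21 (0.71 ± 0.17, adjusted p = 0.00583). The day 15 call was lost without array 1 (0.67) or 2 (0.77), and the day 21 call without array 1 (0.62). Fbn2, the fibrillin of embryonic microfibrils, was -0.02, 0.19 and -0.27 at day 4, 0.22, -0.14 and 0.09 at day 8, 0.32, 0.73 and 0.08 at day 15, and 0.79, 0.42 and 0.24 at day 21. It was called at day 21 (0.49 ± 0.28, adjusted p = 0.0257), and that call was lost without array 1 (0.33) or 2 (0.52). Feature 71 averaged 0.76 at that day and feature 2837 averaged 0.21. In a fit of single features 71 passed (adjusted p = 0.0259) and 2837 did not (adjusted p = 0.156).

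Fbln5, a fibulin needed to assemble elastic fibres, was 0.12, 0.05 and 0.10 at day 4, -0.13, 0.09 and 0.06 at day 8, 0.18, 0.10 and 0.03 at day 15, and 0.26, 0.13 and 0.30 at day 21 (0.23 ± 0.09, adjusted p = 0.0395). That small ratio was lost as a call without day 21 array 1 (0.22), 2 (0.28) or 3 (0.20). It was also lost at 0.23 without day 4 array 1 or 3, day 8 array 2 or day 15 array 1 or 2. Elastin itself, Eln, was -0.20, -0.07 and -0.22 at day 21 and was not called (adjusted p = 0.274).

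Of 4 thrombospondins, Thbs1, which encodes an activator of latent TGF-beta and inhibitor of vessel growth, was called at day 21. It was -0.31, -0.03 and -0.06 at day 4, -0.10, -0.11 and 0.24 at day 8, 0.51, 0.37 and 0.11 at day 15, and 0.74, 0.52 and 0.37 at day 21. The day 15 and day 21 arrays all lay above those of day 4. Its day 21 mean was 0.54 ± 0.18 (adjusted p = 0.00402), and the call was lost without array 1 (0.45, adjusted p = 0.0546). Its day 15 mean was 0.33 ± 0.21 and missed the threshold (adjusted p = 0.0642). Thbs2, Thbs3 and Thbs4 had day 21 means between 0.09 and 0.15 and were called on no day.

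The lysyl oxidases, enzymes that oxidise lysines of collagen and elastin for cross-linking, had the highest family median at day 21 (0.83) after -0.02, -0.15 and 0.23 at days 4, 8 and 15. The enzymes were called at different days. Loxl2, which also cross-links type IV collagen, was 0.04, 0.60 and -0.03 at day 4, 1.05, 0.96 and 1.20 at day 8, 1.74, 1.44 and 0.08 at day 15, and 0.87, 0.96 and 0.82 at day 21. Loxl2 passed at day 8 (1.07 ± 0.12, adjusted p = 0.0346), day 15 (1.09 ± 0.88, adjusted p = 0.0111) and day 21 (0.88 ± 0.07, adjusted p = 0.0195). Of the 9 arrays from day 8 on, 8 lay at 0.82 or above, and day 15 array 3 stood apart. The day 15 call was lost without array 1 (0.76) or 2 (0.91), and the day 21 call without array 1 (0.89), 2 (0.84) or 3 (0.91). The day 8 call was lost without array 1 (1.08), 2 (1.12) or 3 (1.00), and at 1.07 without day 4 array 1 or day 21 array 1 or 2.

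Lox, the founding enzyme of the family, was 0.18, -0.03 and -0.22 at day 4, 0.20, -0.20 and -0.77 at day 8, 0.20, 0.18 and 0.04 at day 15, and 0.89, 0.83 and 0.83 at day 21. The day 21 arrays lay above all 9 others. It was called at day 21 alone (0.85 ± 0.03, adjusted p = 0.00149), also without each array. Loxl1, which maintains elastic fibres, was 0.02, -0.06 and -0.32 at day 4, -0.07, -0.49 and -0.85 at day 8, 2.23, 1.02 and -0.04 at day 15, and 0.78, 0.86 and 0.86 at day 21. Loxl1 was called at day 15 (1.07 ± 1.13, adjusted p = 0.0336), where its arrays spread most, and missed the threshold at day 21 (0.83 ± 0.05, adjusted p = 0.063). The day 15 call was lost without array 1 (0.49) or 2 (1.09). Array 3 is the only day 15 array in the second array set, so the day 15 value of that set is this array's -0.04. Without day 15 array 3 its mean was 1.62. Loxl3 and Loxl4 were called on no day, with day 21 means of 0.37 (adjusted p = 0.0874) and 0.07.

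Other collagens moved in both directions. Col6a3, a chain of beaded filaments, was 0.11, 0.05 and -0.07 at day 4, 0.15, -0.01 and -0.17 at day 8, 0.20, 0.33 and 0.12 at day 15, and 0.67, 0.58 and 0.35 at day 21 (0.54 ± 0.16, adjusted p = 0.00134). This value rests on 1 of 4 features. Feature 6133 averaged 1.86 at day 21, with 1.98, 2.17 and 1.42 on the arrays (adjusted p = 1.75e-05 in a fit of single features), while the other 3 averaged between -0.13 and 0.24. With the median of features in place of the mean the value was 0.24 and the call was lost (adjusted p = 0.062). Col6a1 and Col6a2, its partner chains, averaged 0.23 and 0.04 at day 21 and were not called.

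Col16a1, a fibril-associated collagen, was 0.19, -0.25 and 0.10 at day 4, 0.16, -0.08 and -0.22 at day 8, 0.37, 0.51 and 0.21 at day 15, and 0.35, 0.43 and 0.84 at day 21 (0.54 ± 0.26, adjusted p = 0.00713). Its call was lost without array 3 (0.39, adjusted p = 0.0539). At day 15 its mean of 0.37 ± 0.15 missed the threshold (adjusted p = 0.0632). Col26a1, an EMI-domain collagen, was 0.05, 0.28 and 0.11 at day 4, 0.17, 0.15 and 0.22 at day 8, 0.34, 0.16 and 0.05 at day 15, and 0.27, 0.33 and 0.13 at day 21 (0.24 ± 0.10, adjusted p = 0.0488). It was positive on all 12 arrays, and its call was lost without day 21 array 1 (0.23), 2 (0.20) or 3 (0.30). It was lost at 0.24 without day 4 array 1 or 3, any array of day 8 or day 15 array 2. The F-test between days did not call Col26a1 (adjusted p = 0.955).

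Lower ratios were called for 2 collagens. Col20a1, a fibril-associated chain, was -0.37, -0.08 and -0.53 at day 4, -0.55, -0.64 and -0.51 at day 8, -0.97, -0.75 and -0.43 at day 15, and -0.72, -0.92 and -0.57 at day 21. It was negative on all 12 arrays and called lower at day 8 (-0.56 ± 0.07, adjusted p = 0.0247), day 15 (-0.72 ± 0.27, adjusted p = 0.00199) and day 21 (-0.74 ± 0.18, adjusted p = 9.03e-04). The calls at days 15 and 21 held without each array, and that at day 8 was lost without its array 1 (-0.57), 2 (-0.53) or 3 (-0.59). A change of Col20a1 between days was not called, for day 21 minus day 4 (-0.41, adjusted p = 0.16) or by the F-test (adjusted p = 0.381). Col8a1, a network-forming short chain of vessel walls, was -0.76, -0.00 and -1.23 at day 4, -0.41, -1.29 and -1.75 at day 8, -0.31, -0.56 and -0.64 at day 15, and -0.39, -0.74 and -0.32 at day 21. It was called lower at day 8 (-1.15 ± 0.68, adjusted p = 0.0271). Its arrays at that day overlapped those of the other days, and that call was lost without array 2 (-1.08) or 3 (-0.85). Its most negative values were on arrays of the second set: day 4 array 3 and day 8 arrays 2 and 3.

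The transmembrane and the kept fibrillar collagens held no called gene. Col25a1, a membrane-spanning collagen of neurons, was 0.13, -0.27 and 0.23 at day 4, -0.01, 0.20 and 0.27 at day 8, 0.23, -0.02 and 0.30 at day 15, and 0.15, 0.20 and 0.57 at day 21 (0.31 ± 0.23, adjusted p = 0.0756). Col5a3, a chain of type V collagen, was 0.00, 0.60 and 0.06 at day 4, 0.42, 0.16 and 0.61 at day 8, -0.07, 0.00 and 0.33 at day 15, and 0.14, 0.21 and 0.44 at day 21 (0.27 ± 0.16, adjusted p = 0.163). Col2a1, the main collagen of cartilage, averaged -0.22 at day 21 (adjusted p = 0.152), with its features at -0.00 and -0.44. Col11a2 averaged 0.17 at day 21 (adjusted p = 0.174). In a fit of single features, its feature 9868 passed at that day (0.27, adjusted p = 0.0454) and its feature 9514 did not (0.07, adjusted p = 0.625).

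**Figure D3:**
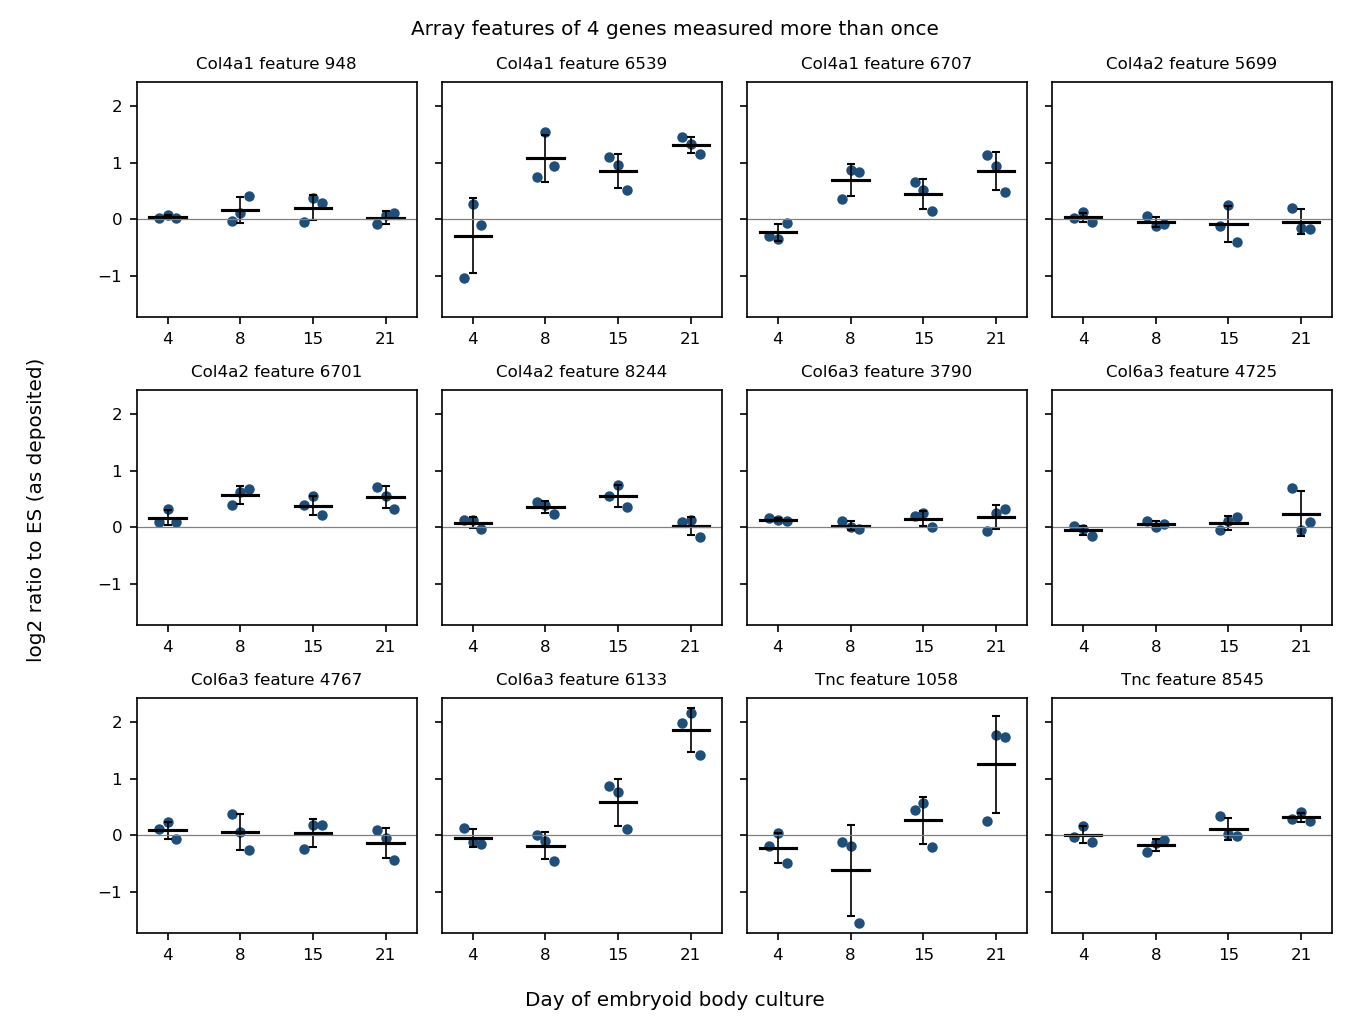
Log2 ratio (vertical axis) by day (horizontal axis) for each array feature of Col4a1, Col4a2, Col6a3 and Tnc, with a point per array, a bar at the mean and whiskers of 1 standard deviation (n = 3). Feature 6133 of Col6a3 reaches 1.86 at day 21 while its other 3 features stay between -0.13 and 0.24, and feature 948 of Col4a1 stays at 0.03 where the others reach 0.85 and 1.31.

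The array features that disagreed most thus belong to Col6a3 and Col4a1, which were the 2 of 19 genes with several features whose means differed by over 1 at day 21 (by 1.98 and 1.28). For Tnc the range was 0.93. For Col9a1, a fibril-associated collagen called on no day, it was 0.80, with feature 629 at -0.30 and feature 7300 at 0.50. In a fit of single features 7300 passed at day 21 (adjusted p = 0.0155) and 629 did not (adjusted p = 0.113), while the gene mean was 0.10. The calls of Sparc, Lox, Loxl1, Loxl2, Lamb1, Lamb2, Thbs1, Col4a3, Col4a4, Col8a1, Col16a1, Col20a1, Col26a1 and Fbln5 rest on 1 feature each, so no second feature could be set against them.

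Over all features, 8.78% were called higher and 9.93% lower at day 21. Type IV collagen had 4 of 6 chains higher at day 21, elastic fibre genes 3 of 5, the lysyl oxidases 2 of 5, and the group of Fn1, Sparc and Tnc 2 of 3. Laminins had 1 of 10, near the share of all features, and thrombospondins 1 of 4. The collagens VI and VII had 1 of 4, the fibril-associated collagens 1 higher and 1 lower of 7, and nidogens with perlecan 0 of 3. Family medians at day 21 were 0.83 for lysyl oxidases, 0.79 for the Fn1, Sparc and Tnc group, 0.50 for type IV collagen, 0.25 for collagens VI and VII, and 0.23 for elastic fibre genes. They were 0.20 for transmembrane collagens, 0.15 for laminins, 0.12 for thrombospondins, -0.11 for nidogens and perlecan and -0.28 for the short-chain collagens. The other 4 families lay between 0.07 and 0.24. By array the type IV median was 0.55, 0.53 and 0.36, the lysyl oxidase median 0.78, 0.83 and 0.82, and the laminin median 0.30, 0.09 and -0.02. Families hold few genes each, and no test between them was made.

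**Figure D4:**
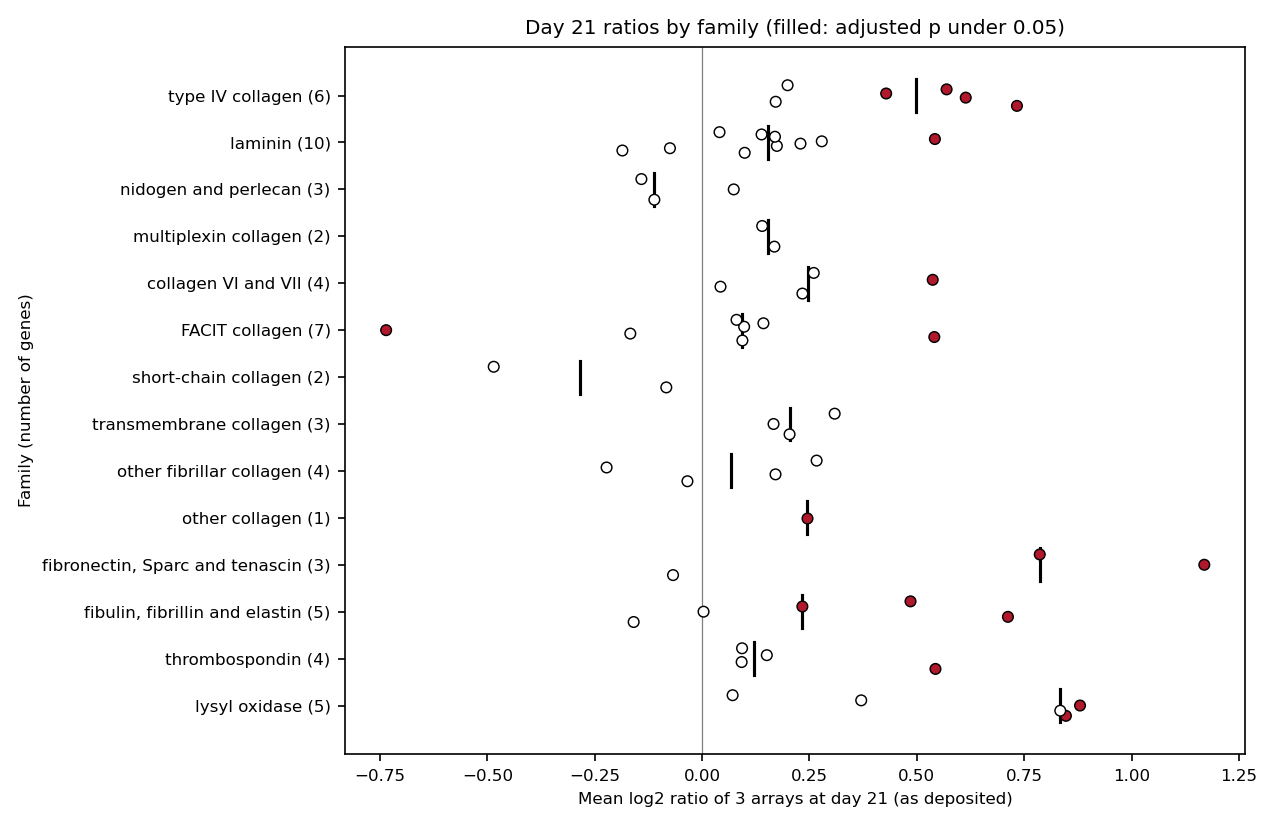
Mean log2 ratio of 3 arrays at day 21 (horizontal axis) for each of the 59 genes (points), by family (vertical axis), with a bar at the family median and filled points for genes with adjusted p under 0.05. Filled points reach from -0.74 (Col20a1) to 1.17 (Sparc), and the linkers of the networks are all open, between -0.14 and 0.07.

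Changes between days were tested by contrasts of the ratios, in which the ES channel is shared. From day 4 to day 21, 8 genes were called higher and 0 lower, against 2.62% and 3.22% of all features. At an unadjusted p under 0.05 there were 15 and 1 genes, with no share of all features counted at that threshold. The differences were 1.27 for Sparc (standard error 0.29, adjusted p = 0.0237), 0.89 for Col4a1 (0.16, adjusted p = 0.00703) and 0.87 for Lox (0.19, adjusted p = 0.0222). They were 0.89 for Tnc (adjusted p = 0.0444), 0.85 for Fbln1 (0.0336), 0.67 for Thbs1 (0.0206), 0.52 for Col4a5 (0.0251) and 0.51 for Col6a3 (0.0307). For each of the 8 genes the 3 arrays of day 21 lay above the 3 of day 4. The genes were picked by this contrast on the same arrays, so that is no added support. The share of all features separated in this way was not counted. The call of Col4a1 held without each array, but not after scaling the arrays to a common spread (0.80, adjusted p = 0.0539), which left that of Thbs1 alone among the 8. With the median of features the Col6a3 difference was 0.22 and was not called (adjusted p = 0.333). The calls of the 7 genes other than Col4a1 were each lost without at least 3 of the 12 arrays. That of Sparc was lost without day 4 array 1 or any array of day 21, and that of Thbs1 without day 4 array 1 or day 21 array 1 or 2. That of Lox was lost without day 4 array 2 or 3 or day 21 array 1 or 2, and that of Col4a5 without any array of either day. Fbln1 lost its call without day 4 array 1 or 2, day 8 array 2 or any array of day 21, and Col6a3 without any array of day 4, day 8 array 2 or day 21 array 1 or 2. Tnc lost it without any array of day 4, array 1 or 2 of day 8 or 15, or day 21 array 2 or 3. Over all 12 omissions the differences ranged from 1.01 to 1.42 for Sparc, 0.77 to 0.97 for Lox, 0.74 to 1.14 for Tnc, 0.75 to 0.93 for Fbln1, 0.58 to 0.76 for Thbs1, 0.48 to 0.58 for Col4a5 and 0.44 to 0.60 for Col6a3.

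Steps between successive days held no called gene. From day 4 to day 8 the test called 0 of the 59 genes and 0% of all features either way, with 7 genes higher and 0 lower at an unadjusted p under 0.05. From day 8 to day 15 it called 0, where 0.131% of features were called higher and 0.0468% lower, with 6 and 3 genes at an unadjusted p under 0.05. From day 15 to day 21 it called 0, where 0.00936% and 0% of features were called, with 3 and 0 genes. With array weights 4, 6 and 0 genes were called in these steps. The percentages of all features above come from the fit without weights, and the share called with weights was not counted. The F-test of any difference between days called 3 genes, which is 5.08% of the 59, against 2.9% of all features. They were Col4a1 (adjusted p = 0.0253), Lox (0.0318) and Col4a5 (0.0403). In that test 16 genes had an unadjusted p under 0.05. Shares of all features at an unadjusted p under 0.05 were not counted, so the unadjusted counts are not read as an excess.

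Other genes of matrix assembly were counted from lists set by function. Their counts at day 21 are read against the 8.78% of all features called higher and the 9.93% called lower. Of 16 measured genes for collagen synthesis and folding, 8 were called higher and 1 lower at day 21, and the list median went from -0.09 at day 4 to 0.41. Serpinh1, the collagen chaperone Hsp47, was at 1.13 ± 0.07 (adjusted p = 0.00248), and Plod2, a lysyl hydroxylase, at 0.78 ± 0.10 (adjusted p = 0.0127). Pcolce2, an enhancer of procollagen cleavage, was at -0.82 ± 0.54 (adjusted p = 0.0151). Of 22 matrix receptors, 5 were called higher at day 21, led by the integrin chain Itgb5 (0.84 ± 0.13, adjusted p = 2.74e-04), Cd47, a thrombospondin receptor (0.50 ± 0.39, adjusted p = 0.0162), and the laminin receptor chain Itga6 (0.42 ± 0.13, adjusted p = 0.0201). The receptor list had a median of 0.05.

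Of 15 other basement membrane proteins, 3 were higher at day 21: Tinagl1, which binds laminin (1.85 ± 0.29, adjusted p = 5.22e-05), Smoc2, a Sparc relative (0.42 ± 0.16, adjusted p = 0.012), and Tinag (0.29 ± 0.10, adjusted p = 0.023). Their list median was 0.08. Smoc2 averaged 0.40, 0.38, 0.42 and 0.42 at days 4, 8, 15 and 21. The F-test between days called Tinagl1 (adjusted p = 0.00493), and not Tinag (0.235) or Smoc2 (0.996). Among 23 matrix proteases and inhibitors, 4 were higher and 3 lower at day 21, with a median of 0.09. Plat, the tissue plasminogen activator, was at 0.77 ± 0.31 (adjusted p = 0.00229). Htra1, a secreted serine protease, was at -0.83 ± 0.60 (adjusted p = 0.0237), and the protease Adamts1 at 0.75 ± 0.41 (adjusted p = 0.00576). The 5 fibrillar chains outside the rule were all higher at day 21, with a median of 1.81, after -0.23 at day 8 with 0 called.

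Markers of cell types moved on the same arrays, and their part in the matrix ratios was not tested. Of all features, 1.23%, 5.66% and 8.78% were called higher at days 8, 15 and 21, and 1.06%, 4.9% and 9.93% lower. Of 17 parietal endoderm markers, 10 were called higher at day 8, 10 at day 15 and 12 at day 21. The 1 called lower at day 21 was Thbd (-0.48 ± 0.48, adjusted p = 0.0313). Their list median by array was -0.03 to 0.06 at day 4, 0.30 to 0.69 at day 8, 0.22 to 0.62 at day 15 and 0.47 to 0.78 at day 21. Serpinh1 and Plat stand in that list and in those above. The parietal list also shares Dab2 with the visceral endoderm list, Pdgfra with the mesenchyme list, and Krt8, Krt18 and Krt19 with the epithelial list. The lists are therefore not separate from each other. Visceral endoderm markers had medians of -0.01 to 0.40, 0.03 to 1.04, 0.81 to 1.47 and 0.78 to 2.05 by array at the 4 days, with 12 of 16 called higher at day 21. Of 16 mesenchyme markers, 1 was called higher and 1 lower at day 8, and 8 higher and 2 lower at day 21. Their medians were -0.19 to 0.17, -0.05 to -0.01, 0.11 to 0.27 and 0.27 to 0.38.

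Endothelial markers had medians of -0.05 to 0.06 at day 4 and 0.18 to 0.28 at day 21, with 6 of 14 called higher at day 21 and none at day 8. Epithelial markers had medians of 0.21 to 0.38 at day 21, with 6 of 13 higher. The 9 cartilage markers had 0 called higher on any day and 1 lower at day 21, with medians of -0.09 to 0.06 at that day, and 1 of 9 is near the share of all features. Of 14 markers of undifferentiated ES cells, 5 were called lower at day 8 and 12 at day 21, with medians of -0.86 to -0.31 and -1.79 to -0.99. The list medians of parietal endoderm, visceral endoderm, mesenchyme and ES markers were nearest to 0 on array 3 among the day 15 arrays, while those of epithelial markers (0.16, 0.31 and 0.39) were farthest from 0 there. It is the array on which Sparc, Loxl1, Loxl2, Fbln1, Col4a3 and Col4a5 were lowest that day.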

How the data were processed

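Messenger RNA was compared between embryoid bodies (EB) and embryonic stem (ES) cells on 12 arrays with both RNAs in separate channels, 3 arrays per day. The authors deposited normalized log ratios, read here as log2; base, scanner, background correction and normalization method are not given in the sources used here. No channel intensities were used. The table held 11520 features with 0 missing values, and array medians lay between -0.0018 and 0.0106. Per the labels, ES RNA carried Cy5 by the dye fields and Cy3 by the label protocols, so the direction is likely and not settled.

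GEO's platform annotation gave 10043 features 1 symbol, 29 several and 1448 none; 10025 were found by Entrez ID in RefSeq's GRCm38.p6 gene table, with 0 symbols changed. Features of a gene were averaged, giving 9212 genes; 1477 other features were kept singly, so 10689 were tested. In R 4.3.3, limma 3.58.1 (lmFit, eBayes) fitted a mean per day over all 12 arrays (degrees of freedom 8 residual, 4.35 prior), testing each day against 0, with contrasts and a moderated F-test between days. Two-sided p-values were Benjamini-Hochberg adjusted over all features within a comparison; "called" means adjusted p under 0.05. The fit was tested on simulated arrays. The array number and ES as the only control limit precision, and the spread of ES is left out.

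The genes, families and lists were chosen with earlier results of these data known. Values on all 12 arrays are given for genes called in any comparison, and for the day 21 ratio farthest from 0 in a family with none; other values were chosen after they were seen. For the other lists, up to 3 called genes with the largest day 21 ratios are named. Alternatives were other normalizations, array weights, single features, feature medians, a robust prior, fits of the days alone, the replicate number as a term, and leaving out each array; 3 more, on array sets, were chosen after seeing the data. Plots used matplotlib 3.10.9.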

Additional observations from a re-analysis of the deposited data

Results flagged for a closer look

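The contrast of day 21 with day 4 differed for 8 genes by limma's test: 1.27 for Sparc, 0.89 for Col4a1, 0.89 for Tnc, 0.87 for Lox, 0.85 for Fbln1, 0.67 for Thbs1, 0.52 for Col4a5 and 0.51 for Col6a3, all higher at day 21.

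Among the called genes, some pairs of days had all 3 arrays of one day above 0 and all 3 of the other below 0, in comparisons that were not tested. Day 15 exceeded day 4 in this way by 0.66 for Col4a1 and 0.46 for Thbs1. Day 21 exceeded day 8 by 1.30 for Loxl1, 1.18 for Tnc and 0.62 for Col4a5. These genes were singled out after their values were seen. The share of all features separated in this way was not counted. The second array set holds day 8 arrays 2 and 3 but only array 3 of day 21, so those days also differ in array sets. Days with 3 arrays are too small for a test of single outlying arrays.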

How the results depend on the processing

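Counts are of the 59 genes. Without 1 array they ranged from 0 to 8 at day 8 (7 with all arrays), 1 to 13 at day 15 (7), 8 to 18 at day 21 (17), 1 to 9 for day 21 minus day 4 (8), 0 to 9 for the F-test (3) and 0 to 1 for day 15 minus day 8 (0). Array weights gave 12 at day 8, 22 at day 15, 4 for day 8 minus day 4, 6 for day 15 minus day 8 and 16 for the F-test. The share of all features called with array weights was not counted, so these counts are not read as an excess. Quantile normalization gave 4 at day 15, 3 for day 21 minus day 4 and 0 for the F-test; scaling gave 4 at day 15, 11 at day 21, 1 for day 21 minus day 4 and 0 for the F-test. Fits of a day alone gave 0 at day 8 and 0 at day 15, and single features gave 5 for the F-test. The array set as a term gave 5 for the F-test. These array-set fits were chosen after seeing the data. The first set holds only array 1 of day 8, and the second, with 5 arrays, only array 3 of days 4, 15 and 21. Counts from fits of a set alone are therefore not given. In the second set alone, Loxl1 at day 15 turned to -0.0373. The second set held only 1 array of day 15, so that Loxl1 value is the one of this array. The causes of these changes in the counts were not tested.

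In a fit with replicate block, 8, 7 and 17 genes were called at days 8, 15 and 21, 7 for day 21 minus day 4, and 5 for the F-test. It ended the day 21 calls of Col26a1, Col4a4 and Fbln5 (adjusted p = 0.0599, 0.0613 and 0.0594) and the day 21 minus day 4 call of Fbln1 (0.0511), and no other. The numbers were not taken as pairs in the main fit. Deviations of same-numbered arrays correlated from -0.14 to 0.389, over 0.1 in 8 of 18 pairs. Of 12 arrays, 10 correlated best with an array of their own number, and the main fit leaves out whatever such arrays share. Of 39 calls in signed comparisons, 8 held without each array; 35 held with the block, 27 after quantile normalization, 23 after scaling, 39 with array weights and 37 with a term for the array set.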
